A study of Mus musculus with 17 samples.

Results

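The 9 genes described here encode chemoattractant receptors of liver Kupffer cells (KCs), macrophages that live in the blood sinusoids of this organ, and were taken by symbol: Ccr1, Cx3cr1, Cxcr4, Ackr3, Fpr1, Fpr2, C5ar1, C3ar1 and Ltb4r1. All 9 were found among the 25124 genes that each table lists, 3 tables in all, of RNA sequencing values, and all 9 passed the filter on low values in each table. The tables hold 17 samples in 6 groups. KCs sorted as Tim4+CD206+ gave 3 samples from tumour-free livers and 3 from livers taken 2 weeks after KPC pancreatic tumour cells were injected into the portal vein. KCs sorted as Tim4+CD206hi, a smaller subset with high CD206, came from the same conditions with 3 samples each. The last table holds 3 samples of KCs from untreated Id3f/f mice, whose Id3 gene is flanked by loxP sites, and 2 from untreated Clec4fCreId3f/f mice, in which a Cre recombinase expressed from the KC gene Clec4f removes it. Both genotypes carry the floxed allele, no group holds the Cre without it, and the mice of this table had no tumour. The tumour-free mice of the other tables were not injected, so tumour and injection cannot be told apart. Replicates are separate samples of a group by their labels, which name no animals, so the p-values measure the spread between these samples. The labels also do not say whether both subsets were sorted from the same mice, so results in both subsets may not be independent.

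Chemoattractant receptors are seven-helix receptors that let leukocytes sense and follow gradients of chemokines, complement fragments, formylated bacterial or mitochondrial peptides and lipid mediators. Most couple to inhibitory G proteins, whose released subunits activate phosphoinositide 3-kinase gamma, phospholipase C beta and Rac, while arrestins and G protein receptor kinases end the signal. In macrophages the same receptors also control adhesion, survival, phagocytosis and oxidant release. KCs sit inside the liver sinusoids, where gut-derived products, complement and blood-borne cells reach them first, and CX3CR1 is commonly low in resident KCs and high in monocytes and macrophages newly derived from them.

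The receptors lie on 6 chromosomes. In the RefSeq annotation of mouse build GRCm38.p6, Ccr1 lies at chr9:123962126-123968692 on the minus strand and Cx3cr1 at chr9:120048683-120068296 on the minus strand. Cxcr4 lies at chr1:128588199-128592299 on the minus strand and Ackr3 at chr1:90203980-90215724 on the plus strand. Fpr1 at chr17:17876471-17883939 on the minus strand and Fpr2 at chr17:17887824-17893952 on the plus strand stand head to head, with 3883 bases between them in the GENCODE annotation. C5ar1 lies at chr7:16246743-16259540 and C3ar1 at chr6:122847140-122856157, both on the minus strand, and Ltb4r1 at chr14:55765962-55768492 on the plus strand. In the GENCODE annotation Fpr2 overlaps Fpr3, a relative on the same strand, and Cx3cr1 overlaps several genes through a long transcript, so reads in the shared parts may have been left out of the values of these genes. Paralogues of the formyl peptide receptor family can also share reads, and the values of Fpr1 and Fpr2 are uncertain to that extent.

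The promoters of the 5 receptors that passed the test with tumour in at least 1 subset are shown because these genes moved together in 2 directions, Ccr1, Cx3cr1 and Ltb4r1 upward and Fpr1 and Fpr2 downward. Each run holds the 250 bases before the annotated start, 5′ to 3′ on the strand of the gene, from RefSeq (GRCm38.p6). The positions are chr9:123968693-123968942 (minus) for Ccr1, chr9:120068297-120068546 (minus) for Cx3cr1, chr14:55765712-55765961 (plus) for Ltb4r1, chr17:17883940-17884189 (minus) for Fpr1 and chr17:17887574-17887823 (plus) for Fpr2. Capitals mark matches on either strand to the E-box CANNTG, the site bound by the E proteins that ID3 sequesters, or to GAGGAA, a core bound by PU.1, the lineage factor of macrophages. The last motif searched, CCGGAA, a core bound by ETS factors such as ELK1, has no match in the promoters of the 9 receptors. No match of one motif overlaps a match of another in these runs.
Ccr1: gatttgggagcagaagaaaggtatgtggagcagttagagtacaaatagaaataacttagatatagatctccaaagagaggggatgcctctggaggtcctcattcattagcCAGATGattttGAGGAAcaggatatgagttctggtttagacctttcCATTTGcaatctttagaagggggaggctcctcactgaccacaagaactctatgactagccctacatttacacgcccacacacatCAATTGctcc
Cx3cr1: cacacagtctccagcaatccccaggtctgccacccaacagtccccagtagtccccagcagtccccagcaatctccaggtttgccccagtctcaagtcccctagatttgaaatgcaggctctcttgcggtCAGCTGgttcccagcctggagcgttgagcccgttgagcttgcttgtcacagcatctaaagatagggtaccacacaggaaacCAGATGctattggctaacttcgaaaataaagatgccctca
Ltb4r1: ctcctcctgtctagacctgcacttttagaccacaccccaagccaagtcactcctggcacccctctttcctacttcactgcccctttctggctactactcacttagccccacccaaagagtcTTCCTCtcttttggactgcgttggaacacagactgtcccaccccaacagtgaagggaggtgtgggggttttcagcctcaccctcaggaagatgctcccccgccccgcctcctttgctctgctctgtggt
Fpr1: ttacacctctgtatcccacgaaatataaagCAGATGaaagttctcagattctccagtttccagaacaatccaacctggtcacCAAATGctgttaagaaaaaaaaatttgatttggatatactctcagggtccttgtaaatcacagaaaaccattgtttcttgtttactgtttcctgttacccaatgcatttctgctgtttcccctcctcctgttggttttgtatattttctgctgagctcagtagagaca
Fpr2: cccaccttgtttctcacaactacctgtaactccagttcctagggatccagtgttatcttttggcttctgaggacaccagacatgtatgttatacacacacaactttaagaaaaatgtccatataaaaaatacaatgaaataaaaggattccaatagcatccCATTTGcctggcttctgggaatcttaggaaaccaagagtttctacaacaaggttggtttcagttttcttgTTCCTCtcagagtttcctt

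An E-box stood in the promoters of 5 of the 9 receptors, namely Ccr1 (3 matches), Cx3cr1 (2), Fpr1 (2), Fpr2 (1) and C5ar1 (1). The C5ar1 window, chr7:16259339-16259588, precedes a start inside the gene span given above, which ends at 16259540. Most of this window, with its E-box, therefore lies within the annotated gene. Among all 32851 RefSeq promoters of this length, 66.2% hold at least 1 E-box. GAGGAA stood in 3 of the 9, namely Ccr1, Fpr2 and Ltb4r1 with 1 match each, against 23.3% of all promoters. CCGGAA is held by 12% of all promoters. These matches describe letters in a window and show no binding. Both kinds of match stood among the receptors that were higher with tumour and among those that were lower.

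Before the receptors, the samples were checked. The KC markers Clec4f, Timd4 (TIM4) and Vsig4 had group means of 16.12 to 19.28, 13.95 to 14.96 and 16.02 to 16.47 on the log2 scale of the tables. RNA of all of them was thus found in every group. The RNA of CD206, the marker that separates the subsets, was not among the genes checked. Id3 had values of 12.58, 12.46 and 12.82 in Id3f/f KCs and of 9.83 and 9.82 in Clec4fCreId3f/f KCs, and it fell by 2.80 (limma, adjusted p = 1.4e-06). Clec4f, the gene that drives the Cre, fell by 1.52 (limma, adjusted p = 1.8e-06). Xist, expressed in females, was at 6.33 to 6.38 in Id3f/f KCs and at 9.76 and 9.84 in Clec4fCreId3f/f KCs, and the Y-linked Ddx3y at 9.43 to 9.46 against 7.0 and 7.01. The Y-linked Eif2s3y, Uty and Kdm5d fell as well, with differences of −1.82, −1.08 and −0.36, so sex and genotype cannot be told apart in this table. In the Tim4+CD206hi table tumour-free sample 2 stands apart. Without it 3634 of 14561 genes passed the test with tumour, against 1053 with it, and the results of that table are given both ways for the 9 receptors and for the counts of each gene list. Without it the marker lists had 9 of 9 tumour epithelial, 6 of 12 neutrophil and 4 of 10 monocyte markers higher, 1 of 10 hepatocyte markers higher and 7 lower, 9 of 10 endothelial, 4 of 8 stellate and fibroblast, 4 of 9 T and NK cell, 4 of 7 B cell and 1 of 12 KC markers lower, and 1 of 8 dendritic cell markers higher.

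Markers of other cells moved with tumour, and these values belong beside every tumour result below. All 9 tested markers of tumour epithelium rose in both subsets, among them the keratins Krt8 (3.85 in Tim4+CD206+ and 4.83 in Tim4+CD206hi KCs) and Krt19 (5.25 and 5.36). Their summed level was 10.86 to 11.84 in tumour-free and 15.32 to 15.55 in tumour-bearing Tim4+CD206+ samples, and 10.97 to 11.39 against 15.72 to 15.84 in Tim4+CD206hi samples. Of 12 neutrophil markers, 5 rose in each subset, and their summed level moved from 13.59 to 14.37 up to 15.24 to 15.36 in Tim4+CD206+ KCs and from 13.04 to 13.87 up to 14.41 to 15.01 in Tim4+CD206hi KCs. S100a8 and S100a9, the abundant neutrophil calcium-binding proteins, rose by 2.48 and 2.34 in the larger subset and by 1.99 and 2.14 in the smaller. Retnlg rose by 2.02 in Tim4+CD206+ KCs, and in Tim4+CD206hi KCs its difference was 1.59 (adjusted p = 0.066). Ly6g, the antigen that the sort gated out, had means of 5.84 and 6.90 in Tim4+CD206+ KCs and rose from 3.96 to 5.70 in Tim4+CD206hi KCs. Of 10 monocyte markers, 4 rose in each subset, and Chil3 rose by 3.10 and 2.68 and Ccr2 by 2.57 and 1.90, while Ly6c2, the surface antigen of inflammatory monocytes, differed by 0.16 (adjusted p = 0.821) and 0.11 (adjusted p = 0.796). The summed monocyte level was 14.06 to 15.10 against 15.51 to 15.64 in Tim4+CD206+ KCs and 14.34 to 14.84 against 15.19 to 15.31 in Tim4+CD206hi KCs. Hepatocyte markers moved the other way, with 7 of 10 falling in each subset and, in Tim4+CD206hi KCs, Apob alone rising. Of 12 KC markers, 10 had negative differences in each subset, while 2 and 0 passed the test. Their summed level was 20.56 to 20.90 against 20.08 to 20.18 in Tim4+CD206+ KCs. In Tim4+CD206hi KCs it was 19.82 to 20.29 against 19.65 to 19.84, with overlap. None of these marker lists had a gene at 0 in every tumour-table sample. Ccr2 is also in the list of other receptors and counts as a monocyte marker, and Cxcr2 counts there and as a neutrophil marker. In bulk samples, a change in the number of cells of a type and a change in RNA per cell cannot be told apart, and the part of these markers in the receptor results was not tested.

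**Figure D1:**
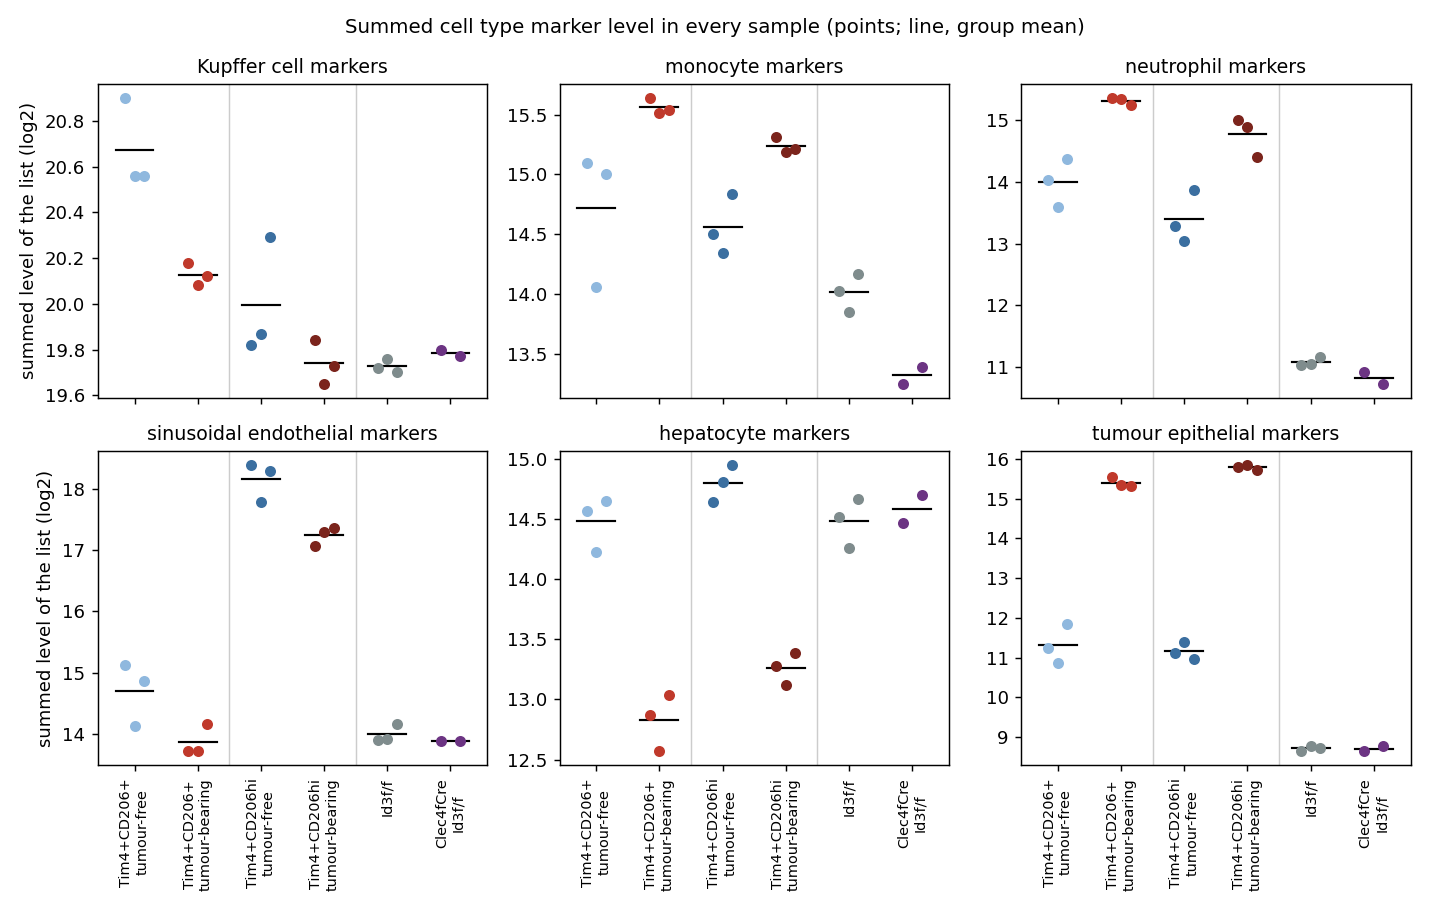
Summed level of 6 cell type marker lists (log2 of the sum of linear values, vertical axis) in each sample (points) of the 6 groups (horizontal axis), with group means as lines. Tumour epithelial markers sit at 15.32 to 15.84 in all 6 tumour-bearing samples and at or below 11.84 in the others, and endothelial markers sit at 17.07 to 18.38 in Tim4+CD206hi samples and at or below 15.13 elsewhere.

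Fpr1 was the most abundant of the 9 receptors per kilobase of exon in all 17 samples. This order uses the log2 level minus the log2 of the exon length in kilobases, so that genes of different length can be compared. C5ar1, the receptor of the complement fragment C5a, and C3ar1, the receptor of C3a, ranked between 2 and 4 in every sample. Fpr2 ranked between 2 and 6, and Ccr1 between 4 and 9. Cx3cr1 ranked between 5 and 7, and Cxcr4, Ackr3 and Ltb4r1 took the low ranks, none of them better than 5. In the Tim4+CD206+ table the mean level of Fpr1 per kilobase was 12.98, above 98.1% of the 13052 tested genes with a known length. That of C5ar1 was 11.52 (94.9%), of C3ar1 10.84 (92.1%) and of Fpr2 10.34 (89.7%). Ackr3, an atypical receptor that scavenges CXCL12 without G protein signalling, was the lowest at 3.88 (21.1%). Cxcr4, the signalling receptor of CXCL12, was at 6.13 per kilobase, above 48.3% of these genes, and above 29% and 23.2% in the Tim4+CD206hi and Id3 tables.

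**Figure D2:**
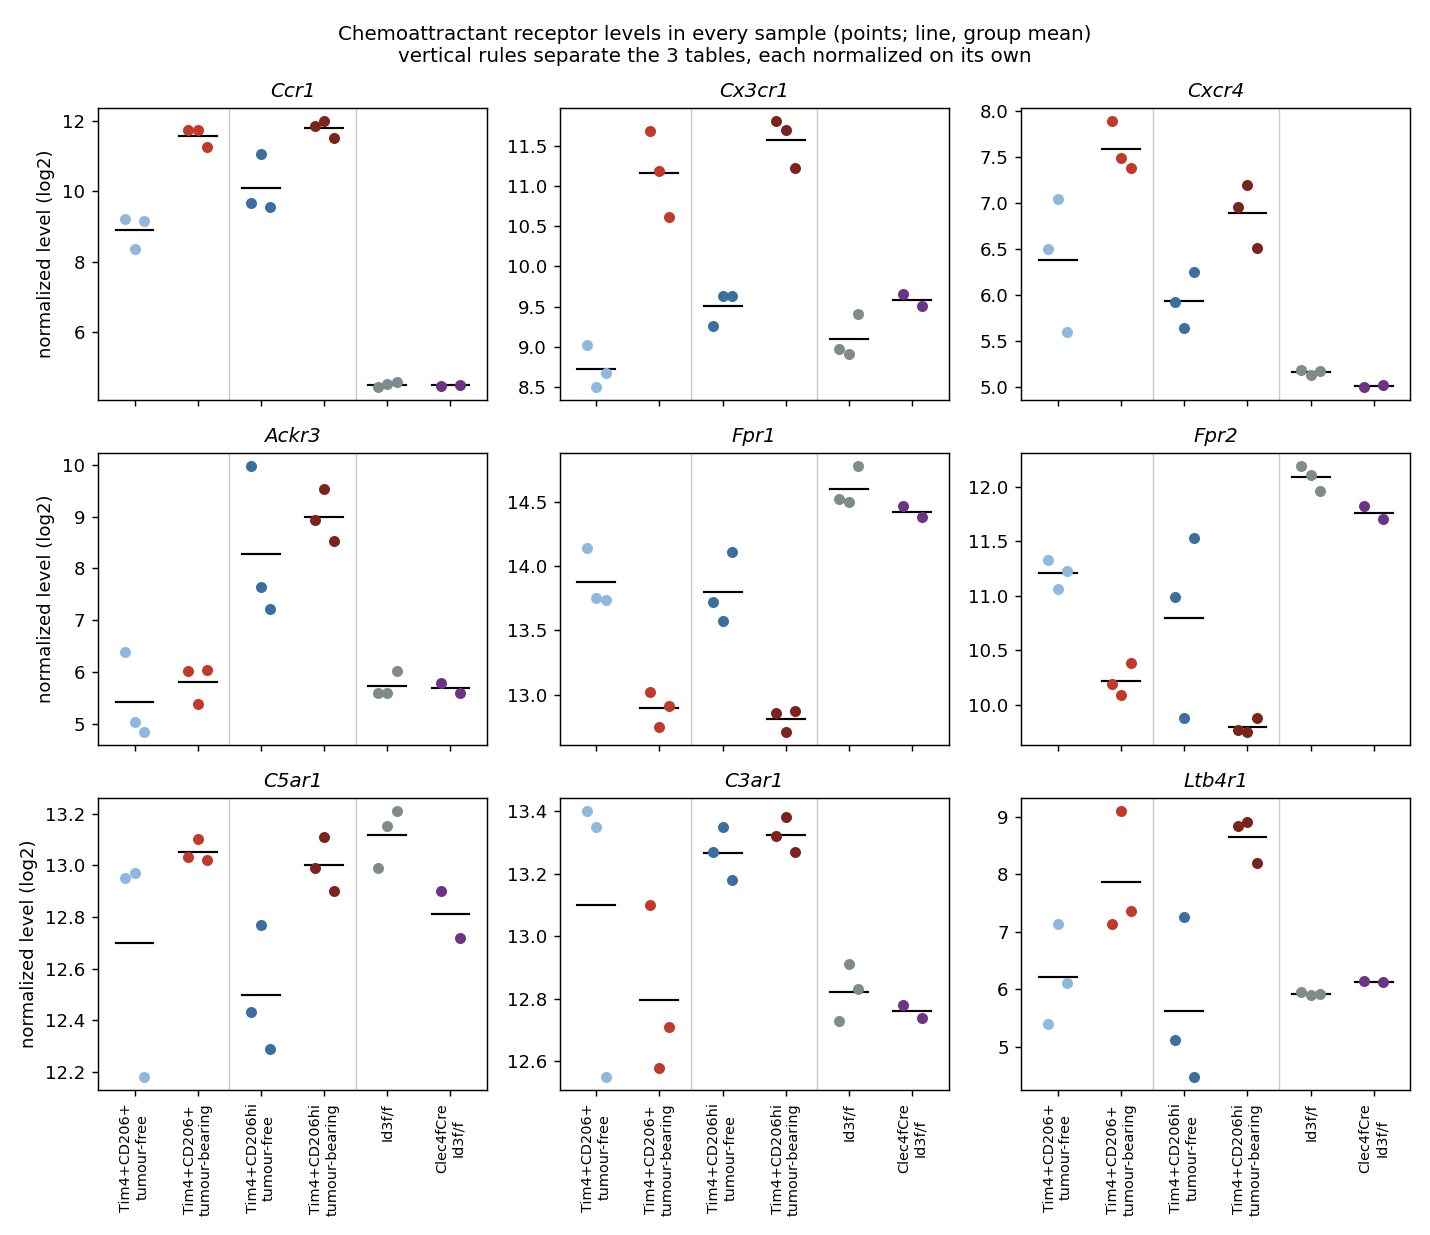
Normalized level (log2, vertical axis, a different range in each panel) of the 9 receptors in every sample (points) of the 6 groups (horizontal axis), with group means as lines. Ccr1 and Cx3cr1 of the tumour-bearing samples lie above all tumour-free samples of the same subset, and Fpr1 lies below them.

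In Tim4+CD206+ KCs, the larger subset, 4 of 9 receptors passed the test with tumour (limma, adjusted p under 0.05 over 13233 genes), where 3.54% of all genes did. Ccr1 and Cx3cr1 rose and Fpr1 and Fpr2 fell, against 2.55% of all genes higher and 0.998% lower. The groups did not overlap for 7 of 9 receptors, against 23.4% of all genes. The median absolute difference was 0.99 for the receptors and 0.25 for all genes. Differences are tumour-bearing minus tumour-free on the log2 scale of the table, on which 1 is a 2-fold difference. Because the transformation draws genes with few reads towards their mean, such differences understate those of low genes.

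Ccr1, a receptor of CCL3, CCL5, CCL6 and CCL9, had values of 9.20, 8.36 and 9.16 in the tumour-free Tim4+CD206+ samples and of 11.74, 11.74 and 11.24 in the tumour-bearing ones. The groups were 2.04 apart at their nearest samples. Ccr1 rose by 2.67 ± 0.27 (SE, n = 3 and 3), which is 6.38-fold (limma, adjusted p = 0.00138). In the smaller subset the values were 9.66, 11.06 and 9.55 without tumour and 11.84, 11.99 and 11.50 with tumour. Tumour-free sample 2 stood between the other tumour-free samples and the tumour-bearing ones, and the groups were 0.44 apart. The difference was 1.68 ± 0.40, with an interval of 0.73 to 2.63, and it missed the threshold (limma, adjusted p = 0.0529). Without tumour-free sample 2 it was 2.17 (adjusted p = 0.000914), and with each sample centred on its median it was 1.52 (adjusted p = 0.0312). Over the 6 Tim4+CD206+ samples, the genes that followed Ccr1 most closely were Arg1, encoding arginase 1 (Pearson r = 0.998), and Spp1, encoding osteopontin (r = 0.997), given as a description over samples that share their groups.

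Cx3cr1, the receptor of fractalkine (CX3CL1), had values of 9.02, 8.50 and 8.67 in tumour-free and 11.69, 11.19 and 10.61 in tumour-bearing Tim4+CD206+ samples. It rose by 2.43 ± 0.29 (SE), or 5.39-fold (limma, adjusted p = 0.00303). In Tim4+CD206hi KCs it stood at 9.26, 9.63 and 9.63 without and at 11.81, 11.70 and 11.22 with tumour. In both tables every tumour-bearing sample lay above every tumour-free sample, with 1.59 between the nearest. The rise in Tim4+CD206hi KCs was 2.07 ± 0.22, or 4.2-fold (limma, adjusted p = 0.00147), and 2.13 without tumour-free sample 2 (adjusted p = 0.00188). Cx3cr1 passed the test in both subsets under every alternative run. Its nearest companions over samples were Slfn4 (r = 0.995) and Emc9 (r = 0.993) in Tim4+CD206+ KCs and Cxcr2 (r = 0.998) and Retreg1 (r = 0.997) in Tim4+CD206hi KCs.

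Cxcr4 was low. Its values were 6.50, 7.04 and 5.60 in tumour-free and 7.89, 7.49 and 7.38 in tumour-bearing Tim4+CD206+ samples, and 5.92, 5.64 and 6.25 against 6.96, 7.19 and 6.51 in Tim4+CD206hi samples. The groups did not overlap in either subset, by 0.35 and 0.26 at the nearest samples. The differences were 1.21 ± 0.38 (limma, adjusted p = 0.142) and 0.95 ± 0.27 (adjusted p = 0.0893), and 0.80 (adjusted p = 0.0749) without tumour-free sample 2 of Tim4+CD206hi KCs. In Tim4+CD206+ KCs the samples of the same number deviated together, and with this number as a block Cxcr4 passed (adjusted p = 0.0339), as it did without tumour-free sample 2 (1.53, adjusted p = 0.0381).

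Ackr3 was uneven among the tumour-free samples, with SDs of 0.85 in Tim4+CD206+ and 1.48 in Tim4+CD206hi KCs. It had values of 6.39, 5.03 and 4.84 against 6.01, 5.39 and 6.04 in Tim4+CD206+ KCs, and of 9.98, 7.65 and 7.22 against 8.93, 9.54 and 8.53 in Tim4+CD206hi KCs. The groups overlapped in both subsets, and tumour-free sample 1 was the highest of each table. The differences were 0.39 (interval −0.55 to 1.34, adjusted p = 0.714 by limma) and 0.72 (−0.92 to 2.36, adjusted p = 0.567), and 0.40 (adjusted p = 0.712) in Tim4+CD206hi KCs without tumour-free sample 2. Side by side, the group means were 8.28 and 9.0 in Tim4+CD206hi and 5.42 and 5.82 in Tim4+CD206+ KCs. Ackr3 is also expressed by endothelial cells, and the summed level of 10 sinusoidal endothelial markers was 17.07 to 18.38 in Tim4+CD206hi samples and 13.72 to 15.13 in Tim4+CD206+ samples, with Stab2 at 15.24 and 13.25 in the tumour-free means. The tables were normalized separately, so neither difference was tested, and the part of the endothelial markers in the level of Ackr3 was not tested.

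Fpr1 and Fpr2, receptors of formylated peptides and of lipid and protein ligands such as annexin A1 and serum amyloid A, fell together in Tim4+CD206+ KCs. Fpr1 had values of 14.14, 13.75 and 13.74 in tumour-free and 13.02, 12.75 and 12.91 in tumour-bearing samples. All tumour-bearing samples lay below, and Fpr1 fell by 0.98 on the log2 scale, a 1.98-fold difference (SE 0.17, limma, adjusted p = 0.0191). Fpr2 had values of 11.33, 11.06 and 11.23 against 10.19, 10.09 and 10.38. It fell by 0.99 (SE 0.17, limma, adjusted p = 0.0188), also without overlap. These calls are near the threshold. They were lost when any 1 of 5 samples was left out, all but tumour-free sample 2, with adjusted p of 0.0547 to 0.0927 for Fpr1 and 0.0557 to 0.0991 for Fpr2, and the fall then ranged from 0.85 to 1.05 and from 0.92 to 1.07. With the replicate block both passed, as without it.

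In the Tim4+CD206hi table Fpr1 had values of 13.72, 13.57 and 14.11 without tumour and 12.86, 12.71 and 12.87 with tumour. It fell by 0.99 (SE 0.18, limma, adjusted p = 0.0194), and by 1.10 without tumour-free sample 2 (adjusted p = 0.00585). The call was lost without tumour-free sample 1 (adjusted p = 0.0657) and without tumour-bearing sample 1, 2 or 3 (0.0966, 0.117 and 0.0852). Fpr2 had values of 10.99, 9.88 and 11.53 against 9.77, 9.75 and 9.88. Tumour-free sample 2 lay at the level of the tumour-bearing samples. The difference was −1.0 ± 0.39 (interval −1.93 to −0.08, limma, adjusted p = 0.207), and −1.46 without that sample (adjusted p = 0.00391). Over the samples of each table, Fpr1 was followed most closely by Cd209f (r = 0.998) and Gimap3 (r = 0.997) in Tim4+CD206+ KCs and by Serpina1a (r = 0.998) and Utp11 (r = 0.996) in Tim4+CD206hi KCs, and Fpr2 by Vps37c (r = 0.998) and Abat (r = 0.997) in Tim4+CD206+ KCs. Serpina1a is a hepatocyte gene and belongs to the hepatocyte marker list, whose summed level was 14.64 to 14.95 without tumour and 13.12 to 13.39 with tumour in Tim4+CD206hi KCs. Its part in the values of Fpr1 was not tested.

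Neither complement receptor passed the test in either subset with all samples. C5ar1 had values of 12.95, 12.97 and 12.18 against 13.03, 13.10 and 13.02 in Tim4+CD206+ KCs and of 12.43, 12.77 and 12.29 against 12.99, 13.11 and 12.90 in Tim4+CD206hi KCs. The tumour-bearing samples were the higher ones without overlap in both tables, by 0.05 and 0.13 at the nearest samples. The differences were 0.35 (interval −0.17 to 0.87, limma, adjusted p = 0.501) and 0.51 (0.09 to 0.92, adjusted p = 0.158), and in Tim4+CD206hi KCs C5ar1 passed without tumour-free sample 2 (0.64, adjusted p = 0.0228). C3ar1 had values of 13.40, 13.35 and 12.55 against 13.10, 12.58 and 12.71 in Tim4+CD206+ KCs and of 13.27, 13.35 and 13.18 against 13.32, 13.38 and 13.27 in Tim4+CD206hi KCs. The groups overlapped in both. The differences were −0.30 (interval −0.89 to 0.29, limma, adjusted p = 0.631) and 0.06 (−0.27 to 0.38, adjusted p = 0.835), and the latter was 0.10 without tumour-free sample 2 (adjusted p = 0.625) and turned to −0.10 with median centring.

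Ltb4r1, the high-affinity receptor of leukotriene B4, was low and uneven without tumour. Its values in Tim4+CD206hi KCs were 5.12, 7.26 and 4.47 without and 8.83, 8.90 and 8.19 with tumour. It rose by 3.02 ± 0.68, or 8.12-fold (limma, adjusted p = 0.0416), with 0.92 between the nearest samples. Without tumour-free sample 2, the highest of its group, the rise was 3.84 (adjusted p = 0.000725). The call was lost without any other sample (adjusted p of 0.0797 to 0.16), with no filter on low values (0.059) and with the stricter filter (0.058). In Tim4+CD206+ KCs the values were 5.40, 7.13 and 6.11 against 7.14, 9.10 and 7.36. Sample 2 was the highest in both groups, and the groups were 0.01 apart. The difference of 1.65 ± 0.59 did not pass (limma, adjusted p = 0.2), and with the replicate block it did (adjusted p = 0.00313). Lrg1 and Cygb followed Ltb4r1 most closely over the Tim4+CD206hi samples (r = 0.998 for both).

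**Figure D3:**
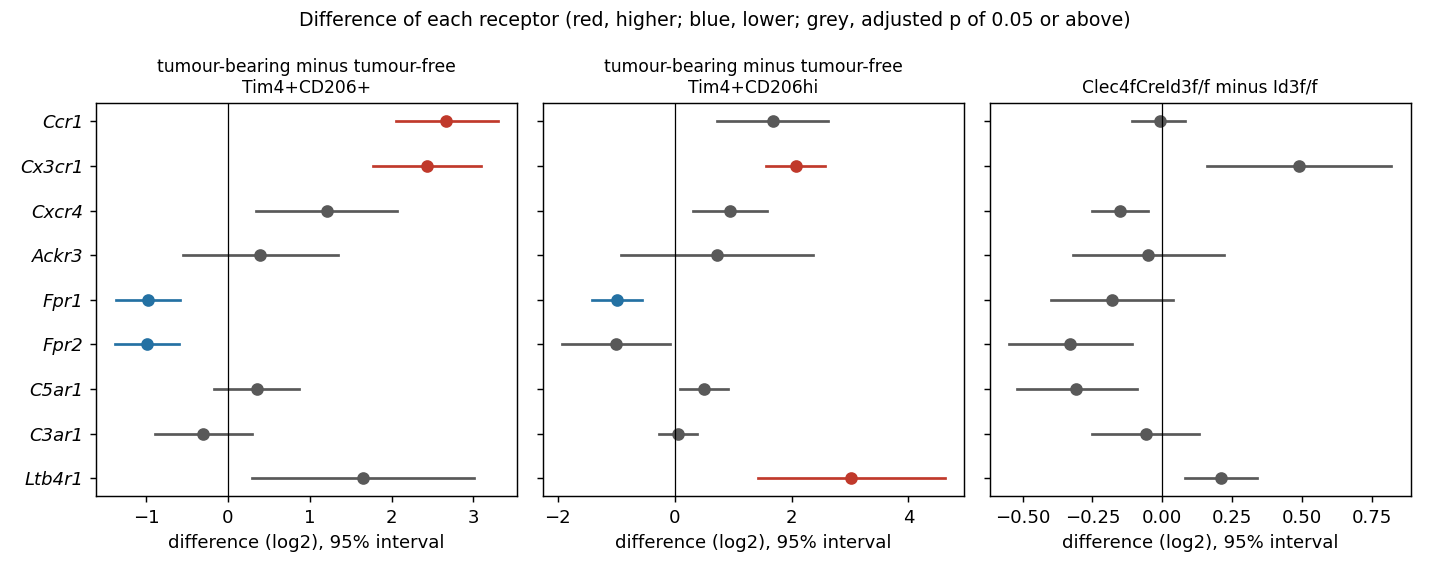
Difference of each receptor (log2, horizontal axis, a different range in each panel) with its 95% interval from limma, for tumour-bearing minus tumour-free samples in each subset and for Clec4fCreId3f/f minus Id3f/f samples. Ccr1 (2.67) and Cx3cr1 (2.43) lie farthest above 0 in Tim4+CD206+ KCs, and no receptor passes in the Id3 comparison, where all differences are within 0.49.

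Of the 9 receptors, 3 passed in Tim4+CD206hi KCs, against 7.23% of 14561 genes. Cx3cr1 and Ltb4r1 were higher, where 5.21% of all genes were, and Fpr1 was lower, where 2.03% were. The groups did not overlap for 6 of 9, against 30.7% of all genes, and the median absolute difference was 0.99 for the receptors and 0.31 for all genes. Without tumour-free sample 2, 6 of 9 passed against 25.0% of all genes, Ccr1, Fpr2 and C5ar1 being added. When one of tumour-free sample 1 and tumour-bearing samples 1, 2 and 3 was left out, 1 receptor passed, Cx3cr1. Centring each sample on its median or quantile normalization moved the differences of the genes in this table by medians of −0.1604 and −0.1657, and under both Ccr1 was added, for 4 of 9. In Tim4+CD206+ KCs the replicate block gave 6 of 9 against 7.75% of all genes, with Cxcr4 and Ltb4r1 added, and 2 of 9, Ccr1 and Cx3cr1, passed without any 1 of the 5 samples named for Fpr1 and Fpr2. The tumour responses of the subsets come from separate tables, and the difference between them was not tested. Set side by side, the differences of Ccr1 were 2.67 and 1.68, of Cx3cr1 2.43 and 2.07, of Fpr1 −0.98 and −0.99, and of Fpr2 −0.99 and −1.0.

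With Id3 deletion, no receptor passed the test. In Clec4fCreId3f/f against Id3f/f KCs 0 of 9 were called (limma), where 6.44% of 12833 genes were, 3.08% higher and 3.37% lower. At an unadjusted p under 0.05 there were 5, Cx3cr1, Cxcr4, Fpr2, C5ar1 and Ltb4r1, where 23.6% of all genes were. The groups did not overlap for 6 of 9, against 41.9% of all genes, and the median absolute difference was 0.18 for the receptors and 0.10 for all genes. With 3 samples against 2, an adjusted p rests on the spread that limma shares between genes.

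Cx3cr1 had the widest difference. It stood at 8.97, 8.91 and 9.41 in Id3f/f and at 9.66 and 9.51 in Clec4fCreId3f/f KCs. Both deleted samples were above the others, Id3f/f sample 3 being the nearest, and the difference was 0.49 (interval 0.16 to 0.82, limma, adjusted p = 0.0799). Fpr2 had values of 12.19, 12.11 and 11.96 against 11.82 and 11.70, a difference of −0.33 (interval −0.55 to −0.11, adjusted p = 0.0746 by limma). C5ar1 had values of 12.99, 13.15 and 13.21 against 12.90 and 12.72, a difference of −0.31 (−0.52 to −0.09, limma, adjusted p = 0.0892). Both were lower in each deleted sample. Fpr1 had values of 14.52, 14.50 and 14.78 against 14.47 and 14.38, and its difference of −0.18 (−0.40 to 0.04) was far from the threshold (limma, adjusted p = 0.303).

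The other receptors lay closer together. Ltb4r1 stood at 5.95, 5.90 and 5.91 against 6.14 and 6.12, a difference of 0.21 (limma, adjusted p = 0.0637), and Cxcr4 at 5.19, 5.13 and 5.17 against 5.0 and 5.02, a difference of −0.15 (limma, adjusted p = 0.0697). Both genes are low, on a scale that narrows the values of genes with few reads. C3ar1 had values of 12.73, 12.91 and 12.83 against 12.78 and 12.74, a difference of −0.06 (interval −0.25 to 0.13, limma, adjusted p = 0.722). Ackr3 had values of 5.59, 5.60 and 6.02 against 5.78 and 5.60, a difference of −0.05 (adjusted p = 0.848 by limma). Ccr1 was near the bottom of the scale at 4.45, 4.53 and 4.58 against 4.49 and 4.52, a difference of −0.01 (adjusted p = 0.907 by limma). Its level per kilobase exceeded that of 11.3% of genes in this table, against 77.8% in the Tim4+CD206+ table. Leaving out Id3f/f sample 3 brought 4 receptors past the threshold, against 14.4% of all genes, namely Cx3cr1 (0.64, adjusted p = 0.00118), Cxcr4 (−0.15, adjusted p = 0.0461), Fpr2 (−0.39, adjusted p = 0.00741) and Ltb4r1 (0.20, adjusted p = 0.0472), by limma. Markers moved here too. Of 8 tested monocyte markers 2 fell, Plac8 and Ms4a4c, with differences of −0.95 and −0.86, and the summed level was 13.85 to 14.17 in Id3f/f and 13.25 to 13.39 in Clec4fCreId3f/f KCs. Vcan, a monocyte marker, and Ly6g were at 0 in all 5 samples.

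Across the groups, the receptors took different orders, given from tables normalized separately and without a test. Ccr1 and Cx3cr1 were highest in the tumour-bearing groups, at means of 11.77 and 11.58 in Tim4+CD206hi and 11.58 and 11.16 in Tim4+CD206+ KCs, whose ranges overlap. Ccr1 then stepped down to 10.09 and 8.90 in the tumour-free groups and to 4.52 and 4.51 in the Id3 table. Cx3cr1 of the 4 groups without tumour lay between 8.73 and 9.58. For Fpr1 the order was the opposite, from 14.60 and 14.42 in the Id3 table through 13.88 and 13.80 in the tumour-free groups to 12.89 and 12.81 with tumour, and for Fpr2 from 12.09 and 11.76 through 11.21 and 10.80 to 10.22 and 9.80. The 2 tumour-free groups overlapped for both genes. C5ar1 and C3ar1 stayed within 12.50 to 13.12 and 12.76 to 13.32 in all groups.

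Among 28 other chemoattractant receptors, most of the tested ones did not pass with tumour. In Tim4+CD206+ KCs 2 of 18 rose and 1 fell, and in Tim4+CD206hi KCs 2 of 19 rose and 3 fell. Of all genes 3.54% and 7.23% passed in either direction. The count of 3 in Tim4+CD206+ KCs was 4 with the replicate block (7.75% of all genes) and 1 to 3 with 1 sample left out. That of 5 in Tim4+CD206hi KCs was 8 without tumour-free sample 2, against 25.0% of all genes, when Ackr2 (−1.07), Ccrl2 (−0.79) and Ptafr (0.56) were added. The same count was 3 without tumour-free sample 1 or tumour-bearing sample 3, and 2 without tumour-bearing sample 1 or 2. Ccr2, the receptor of CCL2 on monocytes, rose by 2.57 (limma, adjusted p = 0.00816) and 1.90 (adjusted p = 0.0182), and the calls were lost without tumour-bearing sample 1 in Tim4+CD206+ KCs (0.0508) and without tumour-bearing sample 1 or 2 in Tim4+CD206hi KCs (0.0878 and 0.0853). Cxcr2, the neutrophil receptor of CXCL1 and CXCL2, rose by 1.96 (adjusted p = 0.00429 by limma) and 2.40 (adjusted p = 0.00283). Cxcr3, a lymphocyte receptor, fell by 0.99 in Tim4+CD206+ KCs (limma, adjusted p = 0.0295), and the call was lost without any 1 of the same 5 samples as for Fpr1 (0.0896 to 0.112). Beside it, the T and NK cell markers had negative differences for 9 of 9 there, of which 0 passed. Cxcr6, a receptor of CXCL16, in Tim4+CD206hi KCs fell by 0.94 (adjusted p = 0.0342) and the atypical receptors Ackr1 and Ackr4, which bind chemokines without G protein signalling, fell too, with differences of −1.44 and −1.87 (limma, adjusted p = 0.0311 and 0.00202), beside 4 of 10 endothelial markers that fell there. Without tumour-free sample 1 or any 1 tumour-bearing sample, the calls of Cxcr6 (adjusted p of 0.0955 to 0.177) and Ackr1 (0.061 to 0.134) were lost. Among these 28, Cmklr1, the chemerin receptor, Ccr7 and Ccrl2 had the highest levels in Tim4+CD206+ KCs, with differences of −0.11, −0.21 and −0.20 (limma, adjusted p = 0.832, 0.75 and 0.664). C5ar2, Ccr2 and Ackr2 had the highest levels in Tim4+CD206hi KCs, with differences of −0.07 for C5ar2 (limma, adjusted p = 0.89) and −0.62 for Ackr2 (adjusted p = 0.393), the latter passing without tumour-free sample 2 (adjusted p = 0.0108). Fpr3 stayed below the filter in all tables, and Fpr-rs3, Fpr-rs4 and Fpr-rs6 were at 0 in all samples. With Id3 deletion 0 of 16 passed by limma, against 6.44% of all genes. There were 2 at an unadjusted p under 0.05, against 23.6%, and 2 passed without Id3f/f sample 3, against 14.4%. Ccrl2, Ccr3 and Cmklr1 had the highest levels of the 16, with differences of −0.35, 0.23 and −0.14.

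**Figure D4:**
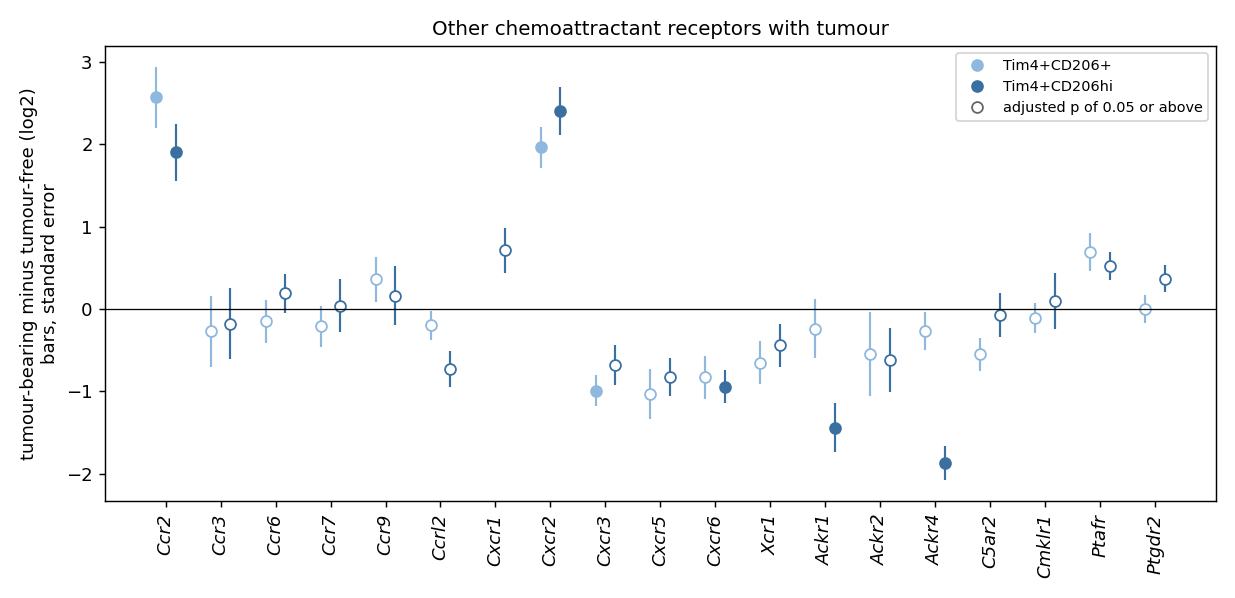
Tumour-bearing minus tumour-free difference (log2, vertical axis) with its standard error for the other chemoattractant receptors tested in at least 1 subset (horizontal axis), in Tim4+CD206+ (pale) and Tim4+CD206hi (dark) KCs, filled where the adjusted p was under 0.05. Ccr2 (2.57 and 1.90) and Cxcr2 (1.96 and 2.40) are the filled points above 0 in both subsets.

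RNA of ligands of the 9 receptors, and of the enzymes that make leukotriene B4, was also found in the sorted samples. These bulk samples also hold RNA of hepatocyte, neutrophil and tumour epithelial markers, and the part of other cells in the ligand values was not tested. In Tim4+CD206+ KCs 4 of 22 rose with tumour and none fell by limma, against 2.55% of all genes higher and 0.998% lower. With the block 11 of the 22 passed, against 7.75% of all genes. Leaving out tumour-free sample 2 gave 7, and the count was 3 without tumour-free sample 3 or tumour-bearing sample 1 and 2 without tumour-bearing sample 2 or 3. Ccl9 and Ccl6, both ligands of CCR1, rose by 2.22 and 1.18 (limma, adjusted p = 0.00113 and 0.0171). Anxa1, encoding the FPR2 ligand annexin A1, rose by 2.25 (adjusted p = 0.00113 by limma), and Alox5, encoding 5-lipoxygenase, by 1.72 (adjusted p = 0.00913). The call of Ccl6 was lost with median centring (0.0598) and without tumour-free sample 3 or any 1 tumour-bearing sample (0.0731 to 0.106), and that of Alox5 without tumour-bearing sample 2 or 3 (0.0512 and 0.0548). The smaller subset had 3 of 22 rising and 1 falling, against 5.21% and 2.03% of all genes. Ccl6 and Ccl9 rose by 0.85 and 1.22 (limma, adjusted p = 0.024 and 0.0103), Cx3cl1 by 3.06 (adjusted p = 0.000121) and Ccl5 fell by 0.84 (adjusted p = 0.0417). Anxa1 differed by 1.06 in Tim4+CD206hi KCs (limma, adjusted p = 0.0543) and Cx3cl1 by 0.58 in Tim4+CD206+ KCs (adjusted p = 0.515). Without tumour-free sample 2 of Tim4+CD206hi KCs, 9 of 22 passed (5 higher and 4 lower), against 25.0% of all genes, and without tumour-free sample 3, 8. Without tumour-bearing sample 1, 2 passed, and without tumour-free sample 1, tumour-bearing sample 2 or tumour-bearing sample 3, 1 passed. Ccl6 (adjusted p of 0.0854 to 0.149 by limma) and Ccl5 (0.123 to 0.206) were lost in these 4 fits. Ccl9 was lost in each of them (0.0542 to 0.0702) but the fit without tumour-bearing sample 1. Ccl6 had the highest value of the ligands in all tables, not corrected for exon length, at 16.08 and 17.26 in Tim4+CD206+ KCs. It was followed by Cfb, a complement factor, with differences of −0.82 and −0.49. Alox5ap followed too, with differences of 0.53 in Tim4+CD206+ and 0.21 beside Ccl9 in Tim4+CD206hi KCs. With Id3 deletion 1 of 22 rose and 3 fell, against 3.08% and 3.37% of all genes. C3, the precursor of C3a, rose by 0.51 (limma, adjusted p = 0.0134), and Ccl6, Ccl7 and Mif fell, with differences of −0.58, −0.65 and −0.55 (limma, adjusted p = 0.00313, 0.00489 and 0.0236). None of these 4 passed when either Clec4fCreId3f/f sample was left out.

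By limma 0 of the 28 signalling genes downstream of the receptors passed with tumour in Tim4+CD206+ KCs, against 3.54% of all genes. At an unadjusted p under 0.05 there were 2. With the replicate block 1 passed (7.75% of all genes), with quantile normalization 1 (472 of 13233 genes) and without tumour-free sample 2, 2 (1022 genes). The count was 0 of 29 in Tim4+CD206hi KCs, against 7.23% of all genes, with 3 at that p. It was 1 with quantile normalization (1182 of 14561 genes) or without tumour-free sample 1 or 3 (649 and 1276 genes). The share of all genes at that p was not computed for either subset. Without tumour-free sample 2, 6 of 29 passed, against 25.0% of all genes. Gnai2 was among these 6 (1.68, limma, adjusted p = 0.0033). Rac2, Gnai2 and Arrb2 had the highest values in Tim4+CD206+ KCs, not corrected for exon length, with differences of −0.25, −0.07 and −0.24. In Tim4+CD206hi KCs Gnai2, Rac2 and Rgs2 did, with differences of 1.04, −0.22 and −0.08. With Id3 deletion 5 of 29 rose and none fell by limma, against 3.08% of all genes higher and 3.37% lower. They were Prex1, a phosphoinositide-activated exchange factor for Rac, by 0.97 (adjusted p = 0.00551), the receptor kinases Grk6 by 0.73 (adjusted p = 0.00295) and Grk2 by 0.33 (adjusted p = 0.0383), Plcb3 by 0.48 (adjusted p = 0.0498) and Dock2, another exchange factor for Rac, by 0.42 (adjusted p = 0.0471). Gnai2, Rac2 and Rac1, those of the highest values, differed by 0.03, 0.25 and 0.15. Among all genes of this comparison 6.44% passed, and 14.4% without Id3f/f sample 3. The count of 5 fell to 3 with median centring and without the mean-variance trend, to 2 with no filter, to 2 and 3 without Id3f/f sample 1 or 2 and to 0 without either Clec4fCreId3f/f sample, and it was 8 without Id3f/f sample 3.

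The remaining marker lists are given by their limma calls. Of all genes 3.54% passed in Tim4+CD206+ KCs, 7.23% in Tim4+CD206hi KCs and 6.44% with Id3 deletion. At an unadjusted p under 0.05 the share of all genes was 23.6% with Id3 deletion and was not computed for either subset. Of 12 KC markers 2 fell in Tim4+CD206+ KCs, with differences of −0.75 for Timd4 and −0.93 for Adgre1, and 0 passed in Tim4+CD206hi KCs (4 at an unadjusted p under 0.05). Of 8 dendritic cell markers 0 passed in Tim4+CD206+ KCs, in Tim4+CD206hi KCs or with Id3 deletion (1, 1 and 2 at that p). T and NK cell markers gave 0 of 9 in the same order (3, 5 and 0). Their differences with tumour were negative for 9 of 9 in Tim4+CD206+ and 8 of 9 in Tim4+CD206hi KCs. Their summed level was 11.90 to 12.79 without and 11.73 to 11.85 with tumour in Tim4+CD206+ KCs. In Tim4+CD206hi KCs it was 11.76 to 12.06 against 11.23 to 11.28. The part of these markers in the values of Cxcr3, Cxcr6 and Ccl5 was not tested. Endothelial markers gave 0 of 10 in Tim4+CD206+ KCs (4 at that p), and stellate and fibroblast markers 0 of 8 there (2) and 3 of 8 lower in Tim4+CD206hi KCs. B cell markers were lower for 5 of 6 in Tim4+CD206+ and 2 of 7 in Tim4+CD206hi KCs. With Id3 deletion 3 KC markers were higher and 2 lower, 1 neutrophil marker was lower (Mmp9, difference −0.49), 1 endothelial marker was higher and 2 lower, and 1 hepatocyte marker was lower, while 0 passed of the stellate (0 at that p), B cell (0) and tumour lists (0).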

How the data were processed

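KCs were sorted by flow cytometry as live CD45+ F4/80+ TIM4+ cells, without T, B, NK cells and neutrophils, and their RNA was amplified with the SMART-Seq v4 kit, which does not mark strand. Per the submitters' processing notes and methods, the authors aligned reads with STAR 2.7.10a to mm10 (the methods name GRCm39 or mm10), counted them on genes with HTSeq and used DESeq2. The deposited tables are on a log2 scale and have the features of regularized log values made by the authors separately for each of the 3 tables, although headers name TPM. They were tested as log2 values, in place of a count test. The deposited values do not give the depth per sample, so no counting error could be computed.

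Genes with a value of at least log2 of 10 in as many samples as the smaller group were tested with limma 3.58.1 in R 4.3.3 (mean-variance trend, two-sided, Benjamini-Hochberg over all tested genes, threshold 0.05). The fits were also run on simulated data with independent noise in each sample. Such data hold neither the outlying sample nor the samples that deviated together, so they do not test the calls given here. Alternatives were no filter, a mean of at least log2 of 50, no trend, median centring, quantile normalization, the replicate number as a block and each sample left out. Deviations from the group mean of same-numbered samples correlated across genes at 0.35, 0.56 and 0.15 in Tim4+CD206+ KCs, so same-numbered samples there deviated together. The labels give the number only and do not say that samples are paired. A pairing is inferred from these same values and was not tested. In the other tables same-numbered samples did not deviate together.

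Members and lists were chosen with earlier results of these data known. Named genes are the 9 receptors, the checks of the Id3 table, list genes that passed and the 3 of highest mean value in each list, leading markers, and the 2 genes most correlated with each receptor that passed. The order of values within a list was not corrected for exon length. Marker lists are given by their summed level (log2 of the sum of linear values). Further markers, and the receptor relatives at or near 0, were picked out once their values were known. One gene of the receptor list is not reported here and was left out of the list counts. Exon lengths are GENCODE M21 and promoters RefSeq. Figures were drawn with matplotlib.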

Additional observations from a re-analysis of the deposited data

How the results depend on the processing

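Of 107, 108 and 97 receptor differences recomputed for Tim4+CD206+ KCs, Tim4+CD206hi KCs and the Id3 comparison, 94, 90 and 80 kept their direction and their side of the threshold. The depth per sample is unknown here, and groups of 3 and 2 leave small differences undetected. Leaving out 1 sample moved the genes passing between 231 and 1022 and the receptors between 2 and 5 in Tim4+CD206+ KCs, between 579 and 3634 and between 1 and 6 in Tim4+CD206hi KCs, and between 17 and 1850 and between 0 and 4 with Id3 deletion, where the lone deleted sample is assumed to vary like the others. The highest counts came without tumour-free sample 2 in each subset and without Id3f/f sample 3, and the cause was not tested. Each other sample left out gave 231 to 261 genes in Tim4+CD206+ KCs. The lowest Id3 counts, 17 and 19, came without Clec4fCreId3f/f sample 1 and 2. With the replicate block, 1026 genes passed in Tim4+CD206+ KCs. It also gave 909 genes and 4 receptors in Tim4+CD206hi KCs, where same-numbered samples did not deviate together (correlations of their deviations, −0.05, −0.13 and −0.05). Over the numbered samples of both genotypes (−0.07 and −0.10) the replicate block gave 2082 genes and 5 receptors with Id3 deletion, and Ccr1 and Ackr3 turned to 0.0186 and 0.0913. This fit also leaves out Id3f/f sample 3, and without that sample and with no block these 2 differences were the same. The block changed the calls of Cxcr4 and Ltb4r1 in Tim4+CD206+ KCs and of Ccr1 in Tim4+CD206hi KCs. With Id3 deletion Cx3cr1, Cxcr4, Fpr2, C5ar1 and Ltb4r1 passed in the block fit. All of these but C5ar1 (adjusted p = 0.0549 by limma) also passed without Id3f/f sample 3 and with no block. No other call of a receptor changed with the block.

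The stricter filter left 600 genes passing in Tim4+CD206hi KCs, and no filter 477 with Id3 deletion. With Id3 deletion, 1 receptor passed with the stricter filter (Ltb4r1, adjusted p = 0.0465 by limma) and 1 with median centring (Cxcr4, adjusted p = 0.0402 by limma). C3ar1 turned to −0.10 with median centring in Tim4+CD206hi KCs, Gnai2 to 0.0030 with quantile normalization in Tim4+CD206+ KCs and to −0.0011 with median centring in the Id3 table, and Rgs2 to 0.0084 with quantile normalization in Tim4+CD206hi KCs. Differences that changed sign when 1 sample was left out were, in Tim4+CD206+ KCs, those of Cmklr1 (−0.25 to 0.0271) and Gnai2 (−0.57 to 0.66), in Tim4+CD206hi KCs those of C5ar2 (−0.37 to 0.13) and Rgs2 (−0.31 to 0.19), and with Id3 deletion those of Ccr1 (−0.0471 to 0.0186), Ackr3 (−0.14 to 0.0913) and Gnai2 (−0.0292 to 0.0828). None of these passed the test with all samples.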
